A study of Homo sapiens with 9 samples.

Results

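In HepG2 cells given the PPARα agonist GW7647, 99 of the 19775 genes measured were lower after 6 h than in vehicle-treated cells and were back near the vehicle level after 24 h. They were chosen by a rule on log2 signals of 1 probe set a gene, where each gene stood for its brightest probe set by the mean of 9 arrays. That mean had to be at least 6, the 6 h mean at least 0.35 below the vehicle mean, the 24 h mean at least 0.35 above the 6 h mean, and the 24 h mean less than 0.25 from the vehicle mean. Every 6 h array also had to lie below every vehicle array, an order that 10.3% of all genes met. The rule left out 12 genes by name, of which 7 would have met its numbers: PPARA, RXRA, PTCHD4, TP53INP1, SLC1A2, FMO5 and INSIG2. Because the rule used all 3 comparisons between the groups, the values of the 99 genes are given below as a description.

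HepG2 cells, a widely used hepatoma line of human origin, retain many traits of hepatocytes. The cells were grown in medium with serum and without phenol red, split on the previous day, and then exposed to 100 nM GW7647 for 6 h, to 100 nM GW7647 for 24 h, or to the solvent DMSO. Each group had 3 arrays, labelled as replicates with no word on whether these were separate cultures, so p-values rest on a spread among arrays that may be technical. A single DMSO group was the control of both times. How long its cells were kept is not stated by the labels, so ligand exposure and time in culture cannot be told apart. These are bulk samples, in which fewer cells of a type and less RNA per cell cannot be told apart.

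PPARα is a nuclear receptor that fatty acids and synthetic ligands activate and that binds DNA as a heterodimer with RXR. In liver cells it is best known for raising transcripts of fatty acid oxidation, ketone body formation and lipid storage. The genes with the dip include regulators of other programmes of the hepatocyte. BCL6 is a zinc finger repressor that in mouse liver occupies sites near those of PPARα, RORA is a nuclear receptor of the clock network, and DBP and NFIL3 are an activator and a repressor that act on the same clock-controlled DNA elements.

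Promoters of 4 DNA-binding regulators among the 99 genes are printed here, as the stretches from which transcripts with a shared dip start: BCL6, with the second largest fall, STAT3, which interleukin-6 activates, and the clock output factors DBP and NFIL3. The sequences are from RefSeq with build GRCh38.p14 and run 5′ to 3′ on the gene's strand, from 250 bases before to 50 bases after the start. Capitals mark matches to 1 motif in each. In BCL6 (minus strand, chr3:187745419-187745718) they mark GAANNTTC, the letters of a pair of heat shock units, with the first base at position 32. In STAT3 (minus strand, chr17:42388393-42388692) and DBP (minus strand, chr19:48637330-48637629) they mark the CCAAT box, read here as ATTGG on the printed strand. In NFIL3 (minus strand, chr9:91424577-91424876) they mark the GC box GGGCGG, with the first base at position 12.
BCL6: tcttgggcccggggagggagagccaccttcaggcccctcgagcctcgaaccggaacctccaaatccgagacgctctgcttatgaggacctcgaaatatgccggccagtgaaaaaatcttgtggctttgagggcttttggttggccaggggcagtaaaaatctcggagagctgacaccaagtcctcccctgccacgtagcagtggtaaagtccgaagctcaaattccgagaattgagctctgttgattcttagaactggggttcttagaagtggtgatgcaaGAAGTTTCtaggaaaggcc
STAT3: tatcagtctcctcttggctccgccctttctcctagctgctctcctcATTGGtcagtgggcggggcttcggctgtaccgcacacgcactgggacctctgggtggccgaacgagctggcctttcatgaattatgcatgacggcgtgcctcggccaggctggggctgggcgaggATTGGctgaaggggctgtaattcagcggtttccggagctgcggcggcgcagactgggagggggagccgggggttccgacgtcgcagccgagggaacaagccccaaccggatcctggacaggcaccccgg
DBP: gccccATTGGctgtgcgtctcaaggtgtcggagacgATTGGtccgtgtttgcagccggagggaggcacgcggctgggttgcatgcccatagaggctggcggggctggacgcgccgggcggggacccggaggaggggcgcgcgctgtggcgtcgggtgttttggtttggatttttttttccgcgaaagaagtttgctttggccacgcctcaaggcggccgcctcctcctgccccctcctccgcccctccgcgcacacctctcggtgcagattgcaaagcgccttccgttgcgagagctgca
NFIL3: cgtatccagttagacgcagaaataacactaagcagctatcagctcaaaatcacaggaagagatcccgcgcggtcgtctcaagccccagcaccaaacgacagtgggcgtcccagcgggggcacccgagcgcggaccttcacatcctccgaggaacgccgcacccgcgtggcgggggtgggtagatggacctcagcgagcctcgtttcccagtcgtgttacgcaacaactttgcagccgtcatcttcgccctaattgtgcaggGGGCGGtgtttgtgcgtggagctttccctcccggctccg
The STAT3 matches begin at positions -204 and -79 and the DBP matches at -245 and -214 from the start.

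RefSeq promoters were found for 70 of the 99 genes and for 9545 of the 11750 genes with a mean signal of at least 6, and each motif was searched on both strands. The CCAAT box was in 30 of the 70, or 42.9%, against 36.4% of the 9545. The GC box was in 46, or 65.7%, against 69.7%, and the metal response core TGCNCNC was also in 46, or 65.7%, against 63.8%. A lower share was seen for the ETS core CCGGAAG, present in 6 promoters, or 8.57%, against 19.2%. The nuclear receptor element AGGTCA was in 7, or 10.0%, against 10.2%, and the direct repeat of that element with a spacer of 1 base, the core of the PPAR response element, was in 0 of 70 and in 3 of the 9545. GAANNTTC was in 4, or 5.71%, against 4.39%, TATAAA in 6, or 8.57%, against 5.41%, and the E-box CACGTG in 7, or 10.0%, against 10.3%. TGACGTCA, the cAMP response element, was in 0 of 70 against 3.29%, its shorter form TGACGT in 5, or 7.14%, against 11.6%, and the AP-1 site TGANTCA in 1, or 1.43%, against 4.54%. The hypoxia core ACGTG, which overlaps CACGTG, was in 19, or 27.1%, against 26.7%, the antioxidant core TGACNNNGC in 12, or 17.1%, against 15.5%, and the sterol core TCACNCCAC in 1, or 1.43%, against 1.08%. Of the longer motifs searched, the NRF1 site was in 6, or 8.57%, against 11.8%, the YY1 core was in 0 of 70 against 2.07%, and the pair of p53 cores in 0 of 70 against 0.21%. The GC content of the promoters had a median of 66.0%, against 65.3%. These are shares of letters in a window, and no test was made of them.

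The deposited arrays carried log2 signals from RMA, a method that corrects background, brings all arrays to a common distribution and turns the probes of each set into a single value. Over all genes, the median deviation of an array from the vehicle mean was between -0.0052 and 0.0185. Transcripts of hepatocytes marked the cells as labelled: of 22 such genes 21 were measured, all 21 had a mean of at least 6, and their summed signal had a log2 of 17.87 to 17.89 at 6 h, 17.86 to 17.90 at 24 h and 17.93 to 17.95 in vehicle. None of the 99 genes was on the marker lists of hepatocytes, Kupffer cells, stellate cells, endothelial cells, cholangiocytes or blood cells. The summed log2 signal of the 9 Kupffer cell markers measured, of which 2 had a mean of at least 6, was 8.68 to 8.74 at 6 h, 8.81 to 8.85 at 24 h and 8.81 to 8.84 in vehicle. The summed log2 signal of the 10 stellate cell markers, 4 of them with a mean of at least 6, was 11.27 to 11.30 at 6 h, 11.56 to 11.58 at 24 h and 11.35 to 11.40 in vehicle. The hepatocyte, Kupffer and stellate sums at 6 h lay below those in vehicle with no overlap, the sums of endothelial cell (8.98 to 9.14 at 6 h, 9.11 to 9.24 in vehicle), cholangiocyte (12.89 to 12.93 at 6 h, 12.89 to 13.02 in vehicle) and blood cell markers (8.77 to 8.81 at 6 h, 8.63 to 8.84 in vehicle) overlapped, and the part of these shifts in the dip was not tested. The 3′ minus 5′ difference of the ACTB control probe sets, a sign of RNA integrity, was 0.27 to 0.30 at 6 h, 0.25 to 0.40 at 24 h and 0.15 to 0.36 in vehicle, so the groups overlapped. For GAPDH it was 0.045 to 0.070 at 6 h, 0.018 to 0.022 at 24 h and -0.0082 to 0.076 in vehicle, and 6 h and 24 h did not overlap. The part of RNA integrity in the dip was not tested.

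To describe the response to the exposure, 3 transcripts, chosen with earlier results of these arrays known, were read first. PLIN2, which coats lipid droplets, had log2 signals of 12.54, 12.51 and 12.72 at 6 h, of 13.09, 13.02 and 13.01 at 24 h and of 11.55, 11.57 and 11.54 in vehicle, so it was higher at both times with no overlap. CPT1A, the enzyme that admits long-chain fatty acids to mitochondria, averaged 10.12 ± 0.03 at 6 h, 10.68 ± 0.02 at 24 h and 9.91 ± 0.21 in vehicle (SD, n = 3 each). Its 6 h arrays overlapped vehicle and its 24 h arrays did not. MT1G, a metallothionein that binds zinc, averaged 12.11 ± 0.12 at 6 h, 11.55 ± 0.06 at 24 h and 9.69 ± 0.10 in vehicle. Its 6 h minus vehicle difference of 2.42 was the largest rise of all genes, so it is no independent check of the exposure.

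The dip was moderate in size. The 6 h minus vehicle difference of the 99 genes ran from -0.83 to -0.35 on the log2 scale with a median of -0.43, and 31 of them differed by at least 0.5. The 24 h minus 6 h difference ran from 0.35 to 0.92 with a median of 0.50. The 24 h minus vehicle difference ran from -0.22 to 0.25 with a median of 0.06. For most of the genes the limits of the rule reached further above vehicle than below it. Over all 19775 genes the medians of the first 2 differences were 0.0039 and -0.0097. The genes covered most of the signal range, with means from 6.11 to 12.48 and a median of 8.60, against a median of 8.51 for the 11750 genes with a mean of at least 6. The median SD within a group was 0.080 at 6 h, 0.079 at 24 h and 0.080 in vehicle. A spread small beside the dip was favoured by the rule, which asked for 6 h and vehicle arrays apart. For genes with a mean of at least 6 the median SDs were 0.0505 at 6 h, 0.0649 at 24 h and 0.0827 in vehicle.

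**Figure D1:**
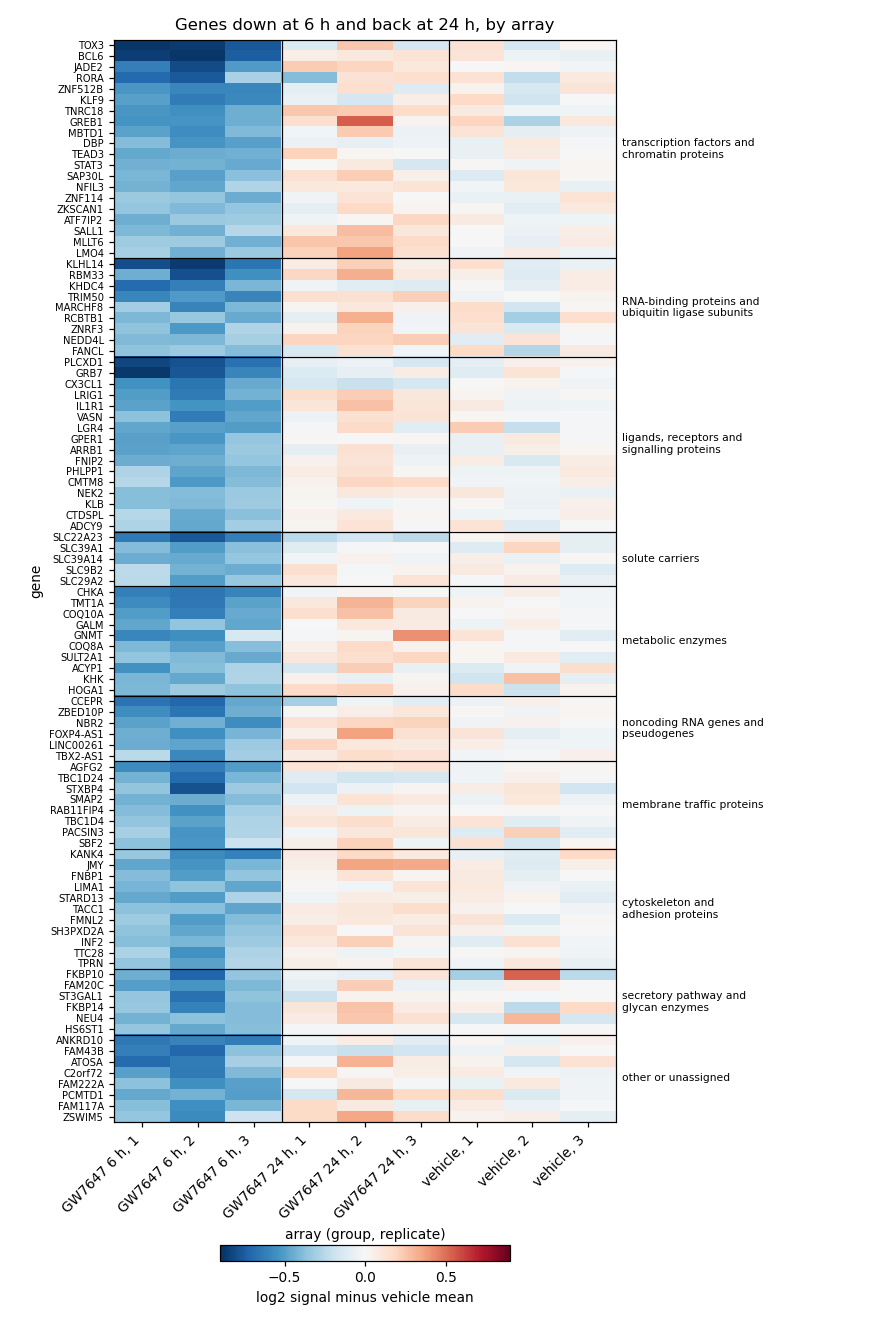
Log2 signal minus the vehicle mean for the 99 genes (rows, grouped by role) in the 9 arrays (columns, 3 each of GW7647 for 6 h, GW7647 for 24 h and vehicle). Blue is below and red above the vehicle mean. By the rule the 3 columns at 6 h are blue throughout, while the 24 h and vehicle columns hold both colours.

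By the rule all 3 arrays at 6 h showed the dip, and its size differed among them. The median deviation of the 99 genes from the vehicle mean was -0.43, -0.52 and -0.39 in the 6 h arrays 1, 2 and 3, against 0.03, 0.12 and 0.05 in the 24 h arrays and 0.01, -0.03 and -0.01 in the vehicle arrays. The second 6 h array was the lowest of its group for 68 of the 99 genes and the second 24 h array was the highest of its group for 57. At 24 h, 73 genes had a mean above the vehicle mean and 26 a mean below it. The rule favours the first side: a 24 h mean at least 0.35 above the 6 h mean left small falls little or no room below vehicle. Counts above and below vehicle at 24 h are therefore a description. The 24 h arrays overlapped the vehicle arrays in 75 genes. They lay all above the vehicle arrays in 20 genes, an order that 14% of all genes met, and all below them in 4, SLC22A23, FAM43B, CX3CL1 and TBC1D24, an order that 8.95% of all genes met. In 98 genes every 24 h array lay above every 6 h array, which held in 19.2% of all genes, and the exception was RORA.

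**Figure D2:**
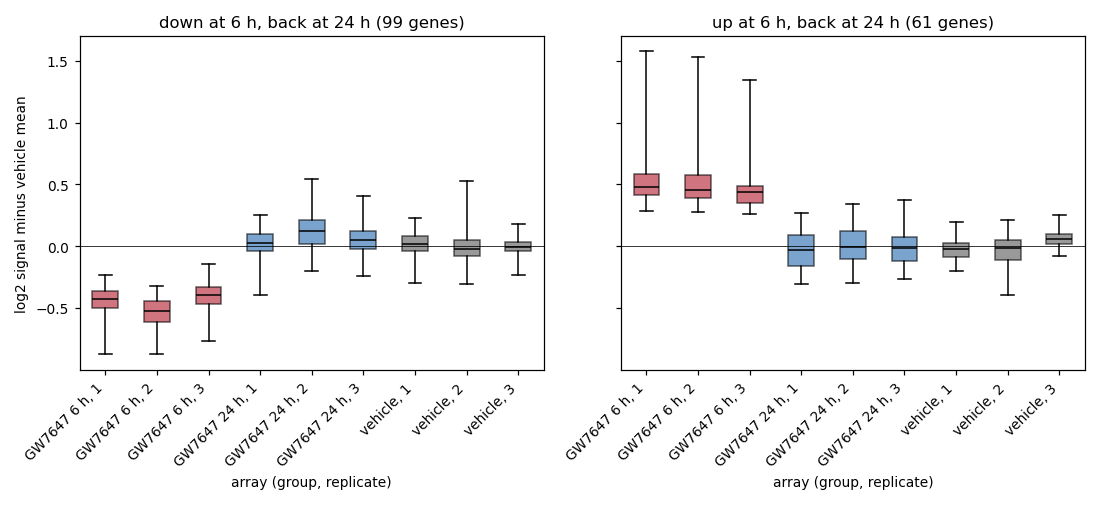
Log2 signal minus the vehicle mean in each array for the 99 genes down at 6 h (left) and for the 61 genes up at 6 h by the same limits (right). Boxes hold the middle of the genes with the median as a line, and whiskers reach the lowest and highest gene. The medians on the left are -0.43, -0.52 and -0.39 at 6 h and lie between -0.03 and 0.12 in the other 6 arrays.

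With limma fitted over all 19775 genes and all 9 arrays, 87 of the 99 genes were called lower at 6 h than in vehicle at an adjusted p under 0.05, beside 1.91% of all genes. Of the 99, 98 were called higher at 24 h than at 6 h, beside 9.23% of all genes, and the exception was FKBP10. At 24 h against vehicle 1 of the 99, MLLT6, was called in either direction, with a difference of 0.22, beside 5.38% of all genes called higher and 2.8% called lower. The 12 genes not called at 6 h were RORA, GREB1, FKBP10, GNMT, ACYP1, RCBTB1, NEU4, KHK, ZSWIM5, PACSIN3, SBF2 and FANCL, whose differences ran from -0.58 to -0.36. The shares over all genes include genes with a mean under 6, which could not be members. Nothing is read from these counts, since the rule chose the genes on the same values. They leaned on the second 6 h array: without it 49 of the 99 were called lower at 6 h.

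Transcription factors and chromatin proteins made up 20 of the 99 genes when roles were assigned by hand once the members were known, with no such share at hand for all genes, and had a median 6 h minus vehicle difference of -0.46. TOX3, an HMG-box factor, read 9.33, 9.34 and 9.44 at 6 h, 10.08, 10.44 and 10.05 at 24 h and 10.33, 10.05 and 10.22 in vehicle. Its 6 h mean was 43.9% below the vehicle mean on the linear scale, the largest fall of the set (-0.83), and its 24 h and vehicle arrays overlapped. This probe set has probes that can match unrelated genes, and the TOX3 probe set without such probes differed by 0.06 at 6 h. BCL6, the repressor whose promoter is printed above, read 8.61, 8.58 and 8.71 at 6 h, 9.52, 9.55 and 9.58 at 24 h and 9.57, 9.41 and 9.39 in vehicle. The differences were -0.82 for 6 h minus vehicle and 0.92 for 24 h minus 6 h, and the 24 h arrays overlapped vehicle. JADE2, a PHD finger protein of histone acetylation complexes, read 7.14, 6.95 and 7.24 at 6 h, 7.98, 7.94 and 7.85 at 24 h and 7.76, 7.77 and 7.73 in vehicle. Here every 24 h array was above every vehicle array, by 0.17 in the means.

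RORA, the clock-linked receptor, read 5.62, 5.56 and 6.03 at 6 h, 5.93, 6.45 and 6.47 at 24 h and 6.45, 6.10 and 6.41 in vehicle. Its signal was the lowest of the set and its first 24 h array lay among the 6 h arrays, so its return to the vehicle level held in the other 2 arrays. ZNF512B, a zinc finger protein, read 9.27, 9.21 and 9.20 at 6 h, 9.70, 9.95 and 9.68 at 24 h and 9.82, 9.65 and 9.91 in vehicle. KLF9, a Krüppel-like factor that glucocorticoids and thyroid hormone induce, read 7.70, 7.57 and 7.62 at 6 h, 8.14, 8.04 and 8.25 at 24 h and 8.37, 8.02 and 8.20 in vehicle. In both the 24 h and vehicle arrays overlapped and the 6 h arrays stood below them, for vehicle by the rule. TNRC18, a large chromatin reader, read 7.67, 7.65 and 7.76 at 6 h, 8.44, 8.43 and 8.36 at 24 h and 8.28, 8.16 and 8.16 in vehicle, and all 24 h arrays were above vehicle. Its other probe sets with a mean of at least 6 had 24 h minus vehicle differences of -0.07, -0.05 and 0.25. GREB1, known as a cofactor of the oestrogen receptor, read 7.31, 7.32 and 7.41 at 6 h, 8.000, 8.39 and 7.88 at 24 h and 8.04, 7.57 and 7.94 in vehicle. Its second vehicle array lay below the other 2, and its second 24 h array was the highest of all 9.

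The other 12 genes of this role were MBTD1, DBP, TEAD3, STAT3, SAP30L, NFIL3, ZNF114, ZKSCAN1, ATF7IP2, SALL1, MLLT6 and LMO4, with 6 h minus vehicle differences from -0.48 in MBTD1 to -0.36 in LMO4. STAT3, which carries interleukin-6 signals in liver, read 10.39, 10.40 and 10.37 at 6 h, 10.82, 10.91 and 10.68 at 24 h and 10.84, 10.80 and 10.84 in vehicle. It had the highest mean signal of the 20 factors. DBP read 7.38, 7.25 and 7.29 at 6 h, 7.72, 7.70 and 7.73 at 24 h and 7.71, 7.87 and 7.76 in vehicle. NFIL3 read 10.23, 10.18 and 10.38 at 6 h, 10.75, 10.73 and 10.77 at 24 h and 10.62, 10.74 and 10.58 in vehicle. On these probe sets the activator and the repressor both dipped, by differences of -0.47 in DBP and -0.39 in NFIL3, and in both the 24 h arrays overlapped vehicle. Another DBP probe set, with a mean of 6.34, differed by -0.10 at 6 h and came back by 0.17. TEAD3, a DNA-binding partner of the Hippo effector YAP, read 7.49, 7.50 and 7.51 at 6 h, 8.15, 7.97 and 7.95 at 24 h and 7.88, 8.02 and 7.94 in vehicle.

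**Figure D3:**
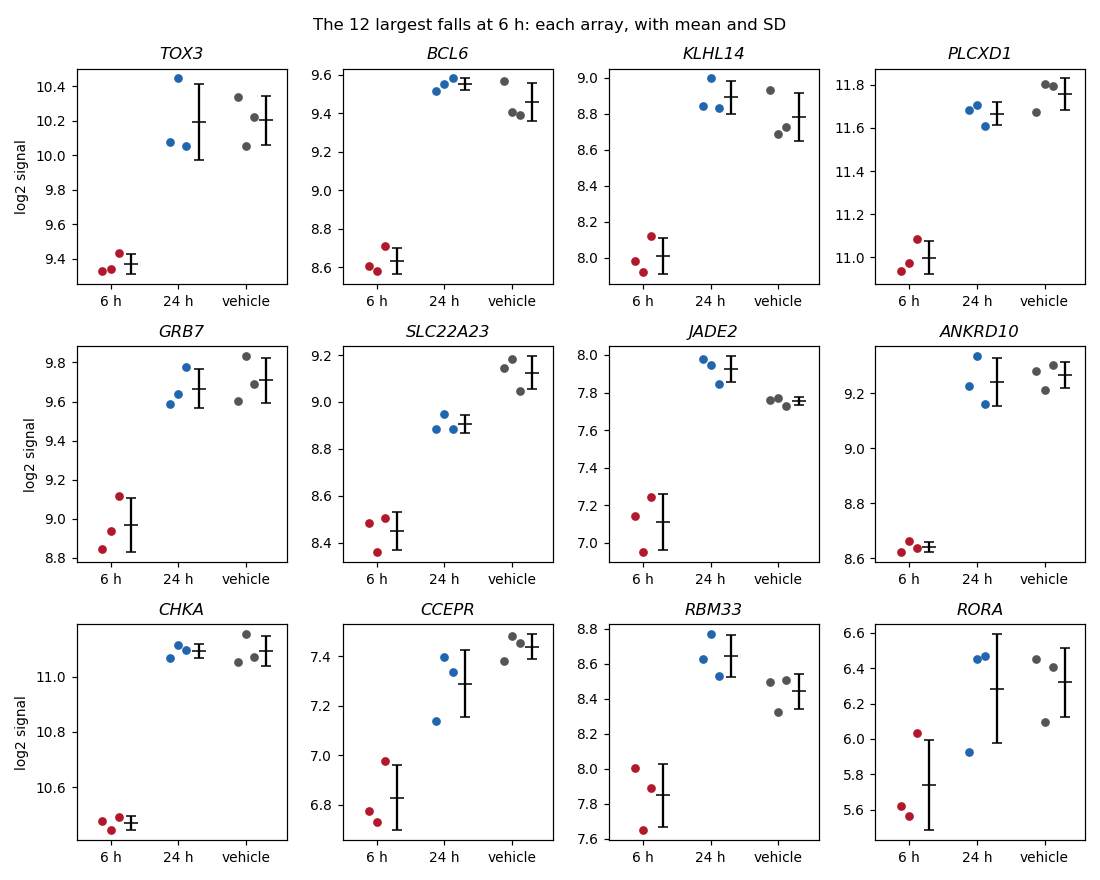
Log2 signal of the 12 genes with the largest falls at 6 h, 1 panel a gene. Points are arrays in the order of the replicate number (red, GW7647 6 h; blue, GW7647 24 h; grey, vehicle), and the bars beside them give the mean and SD of 3 arrays. In all 12 panels the 6 h points lie below the vehicle points, as the rule required, and in RORA the first 24 h point lies among the 6 h points.

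RNA-binding proteins and ubiquitin ligase subunits counted 9 genes with a median difference of -0.44. KLHL14, a Kelch protein of the kind that brings substrates to cullin 3, read 7.98, 7.92 and 8.12 at 6 h, 8.85, 8.998 and 8.83 at 24 h and 8.93, 8.69 and 8.73 in vehicle. On this probe set it had the third largest fall, -0.77, and came back by 0.88, but the fall was -0.31 with all its probe sets averaged, and another probe set with a mean of at least 6 differed by -0.27 at 6 h and came back by 0.08. RBM33, an RNA-binding protein, read 8.005, 7.65 and 7.89 at 6 h, 8.63, 8.77 and 8.53 at 24 h and 8.49, 8.33 and 8.51 in vehicle. KHDC4, a KH-domain protein linked to splicing, read 8.48, 8.56 and 8.77 at 6 h, 9.15, 9.07 and 9.07 at 24 h and 9.19, 9.10 and 9.24 in vehicle. TRIM50, a ubiquitin ligase, read 6.24, 6.32 and 6.23 at 6 h, 6.98, 6.97 and 7.04 at 24 h and 6.80, 6.83 and 6.86 in vehicle. On these probe sets RBM33 and TRIM50 ended above vehicle in every array, by 0.20 and 0.16 in the means, whereas KHDC4 overlapped it. The other RBM33 probe sets with a mean of at least 6 had 24 h minus vehicle differences of -0.19 and 0.20.

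The other 5 were MARCHF8, RCBTB1, ZNRF3, NEDD4L and FANCL, from -0.44 to -0.36. NEDD4L, a ligase that takes sodium channels from the cell surface, had the highest signal of these, with 11.18, 11.17 and 11.27 at 6 h, 11.77, 11.77 and 11.79 at 24 h and 11.48, 11.69 and 11.56 in vehicle. This probe set ended above vehicle in all arrays, but a pair of others with means of 9.56 and 9.41 stayed low, with 24 h minus 6 h differences of -0.04 and -0.0072 and 24 h minus vehicle differences of -0.29 and -0.43. ZNRF3, the ligase that removes WNT receptors, read 9.84, 9.69 and 9.94 at 6 h, 10.23, 10.40 and 10.18 at 24 h and 10.32, 10.08 and 10.21 in vehicle. LGR4, the R-spondin receptor that opposes ZNRF3, read 8.07, 8.04 and 8.03 at 6 h, 8.52, 8.70 and 8.44 at 24 h and 8.76, 8.32 and 8.51 in vehicle. On these probe sets the ligase and the receptor were both lower at 6 h, with differences of -0.38 in ZNRF3 and -0.48 in LGR4, and both overlapped vehicle at 24 h. Another LGR4 probe set, with a mean of 6.38, differed by -0.08 at 6 h. Its 24 h minus 6 h difference was -0.03.

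Ligands, receptors and signalling proteins counted 16 genes with a median difference of -0.44. PLCXD1, a protein with a phospholipase C-like domain, read 10.94, 10.97 and 11.09 at 6 h, 11.68, 11.71 and 11.61 at 24 h and 11.67, 11.80 and 11.79 in vehicle. GRB7, an adaptor that binds ERBB receptors, read 8.84, 8.94 and 9.12 at 6 h, 9.59, 9.64 and 9.78 at 24 h and 9.60, 9.83 and 9.69 in vehicle. LRIG1, a membrane protein that restrains the same receptor family, read 7.59, 7.45 and 7.66 at 6 h, 8.25, 8.32 and 8.19 at 24 h and 8.12, 8.06 and 8.10 in vehicle. The adaptor and the inhibitor were both lower at 6 h, with differences of -0.74 in GRB7 and -0.52 in LRIG1, but GRB7 overlapped vehicle at 24 h while LRIG1 was above it in every array. CX3CL1, a membrane-bound chemokine, read 8.60, 8.49 and 8.69 at 6 h, 8.997, 8.95 and 8.997 at 24 h and 9.14, 9.18 and 9.12 in vehicle, and its 24 h minus vehicle difference was -0.17 with no overlap. IL1R1, the signalling receptor for interleukin-1, read 8.26, 8.21 and 8.24 at 6 h, 8.85, 9.01 and 8.86 at 24 h and 8.82, 8.70 and 8.71 in vehicle. It ended above vehicle in every array.

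The other 11 genes of this role were VASN, LGR4, GPER1, ARRB1, FNIP2, PHLPP1, CMTM8, NEK2, KLB, CTDSPL and ADCY9, from -0.49 to -0.35. KLB encodes beta-Klotho, the co-receptor through which hepatocytes answer FGF19. It read 10.66, 10.65 and 10.71 at 6 h, 11.05, 11.01 and 11.02 at 24 h and 11.05, 10.99 and 11.09 in vehicle, a small dip of -0.37 with little spread in any group. PHLPP1, a phosphatase that acts on AKT, differed by -0.39 at 6 h, ARRB1, a beta-arrestin, by -0.43, and GPER1, a membrane receptor for oestrogen, by -0.45.

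Metabolic enzymes counted 10 genes with a median difference of -0.43. CHKA, the kinase of the first step from choline to phosphatidylcholine, read 10.48, 10.44 and 10.49 at 6 h, 11.07, 11.12 and 11.10 at 24 h and 11.05, 11.15 and 11.07 in vehicle. The 6 h mean was 34.9% below the vehicle mean and the 24 h mean matched it to within the spread. TMT1A, a thiol methyltransferase of the endoplasmic reticulum, read 9.61, 9.53 and 9.69 at 6 h, 10.27, 10.48 and 10.38 at 24 h and 10.20, 10.17 and 10.15 in vehicle, but its other probe set with a mean of at least 6 was 0.07 above vehicle at 6 h. COQ10A, which chaperones coenzyme Q in mitochondria, read 9.08, 8.97 and 9.14 at 6 h, 9.74, 9.85 and 9.67 at 24 h and 9.58, 9.61 and 9.57 in vehicle. COQ10A and TMT1A were above vehicle in all 24 h arrays.

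The other 7 enzymes were GALM, GNMT, COQ8A, SULT2A1, ACYP1, KHK and HOGA1 of sugar, methyl group, coenzyme Q, steroid sulfate, acylphosphate, fructose and hydroxyproline metabolism, from -0.43 to -0.36.

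Solute carriers counted 5 genes, which is 5.05% of the 99 against 2.07% of the genes with a mean of at least 6. SLC22A23, an orphan of the organic ion carrier family, read 8.49, 8.36 and 8.51 at 6 h, 8.89, 8.95 and 8.89 at 24 h and 9.14, 9.18 and 9.05 in vehicle. On this probe set it came back only in part, with a 24 h minus vehicle difference of -0.22 and no overlap. Its 6 h minus vehicle difference of -0.67 was -0.29 with probe sets averaged and -0.12 without shared probes, and its other probe sets with a mean of at least 6 ended 0.0005, -0.07 and -0.03 from vehicle. SLC39A14, a carrier that brings zinc and iron into hepatocytes, had the highest mean signal of the set and read 12.18, 12.16 and 12.27 at 6 h, 12.60, 12.66 and 12.58 at 24 h and 12.67, 12.56 and 12.63 in vehicle. SLC39A1, another zinc importer, read 8.19, 8.08 and 8.20 at 6 h, 8.47, 8.57 and 8.59 at 24 h and 8.47, 8.77 and 8.50 in vehicle. Both zinc importers had a 6 h minus vehicle difference of -0.42 and overlapped vehicle at 24 h. SLC30A1, which exports zinc and is not a member, averaged 11.12 ± 0.04 at 6 h, 10.59 ± 0.05 at 24 h and 10.69 ± 0.10 in vehicle (SD, n = 3 each), and belongs to the genes up at 6 h and back at 24 h. SLC30A1 was named after its values were seen, and other zinc carriers are not given here. The last pair were SLC9B2, a sodium and proton exchanger (-0.37), and SLC29A2, a nucleoside carrier (-0.36).

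Membrane traffic proteins counted 8 genes with a median difference of -0.42. AGFG2, related to GTPase activators of ARF proteins, read 9.50, 9.44 and 9.56 at 6 h, 10.18, 10.16 and 10.19 at 24 h and 10.02, 10.09 and 10.08 in vehicle. TBC1D24, a TBC-domain protein of vesicle transport, read 7.67, 7.41 and 7.69 at 6 h, 7.995, 7.94 and 7.95 at 24 h and 8.07, 8.14 and 8.09 in vehicle. On these probe sets the first ended above vehicle in all arrays and the second below it in all arrays. The other probe sets with a mean of at least 6 went the other way, with 24 h minus vehicle differences of -0.03, -0.06 and -0.35 for AGFG2 and 0.17 for TBC1D24. The other 6 were STXBP4, SMAP2, RAB11FIP4, TBC1D4, PACSIN3 and SBF2, from -0.49 to -0.36, and TBC1D4 is the AKT substrate that controls glucose transporter vesicles in muscle and fat.

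Cytoskeleton and adhesion proteins counted 11 genes with a median difference of -0.41. KANK4, an ankyrin-repeat protein of the actin cytoskeleton, read 7.05, 6.82 and 6.78 at 6 h, 7.46, 7.57 and 7.48 at 24 h and 7.32, 7.28 and 7.57 in vehicle, with overlap at 24 h. The other 10 were the actin nucleators and formins JMY, FMNL2 and INF2, the membrane and actin adaptors FNBP1, LIMA1 and SH3PXD2A, and STARD13, TACC1, TTC28 and TPRN, from -0.47 to -0.36. At 24 h, 10 of the 11 had a mean above the vehicle mean.

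Secretory pathway and glycan enzymes counted 6 genes with a median difference of -0.45, namely the prolyl isomerases FKBP10 and FKBP14 of the endoplasmic reticulum, the Golgi kinase FAM20C, the sialyltransferase ST3GAL1, the sialidase NEU4 and the heparan sulfate sulfotransferase HS6ST1. All 6 overlapped vehicle at 24 h. FKBP10 read 7.79, 7.51 and 7.87 at 6 h, 8.18, 8.15 and 8.34 at 24 h and 7.93, 8.76 and 7.99 in vehicle. Its second vehicle array stood far above the other 2, which gave it the widest vehicle spread of the set (SD 0.46). The size of its 6 h minus vehicle difference, -0.50, leaned on that array. By limma it was called neither at 6 h against vehicle nor at 24 h against 6 h.

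Noncoding RNA genes and pseudogenes counted 6, with a median difference of -0.48. CCEPR, a long noncoding RNA, read 6.77, 6.73 and 6.98 at 6 h, 7.14, 7.40 and 7.33 at 24 h and 7.38, 7.48 and 7.45 in vehicle. ZBED10P, a transcribed pseudogene, read 9.20, 9.10 and 9.32 at 6 h, 9.77, 9.82 and 9.86 at 24 h and 9.77, 9.73 and 9.78 in vehicle. For CCEPR only the second 24 h array reached the range of vehicle, and for ZBED10P the 24 h and vehicle arrays overlapped. The other 4 were NBR2, FOXP4-AS1, LINC00261 and TBX2-AS1, from -0.49 to -0.38, and LINC00261 is known to lie beside the gene of a liver forkhead factor. In RefSeq's gene table, long noncoding RNAs made up 5 of the 99 genes, or 5.05%, against 4.26% of the genes with a mean of at least 6, and 93 were protein coding.

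The last 8 genes had no role assigned, with a median difference of -0.49. ANKRD10, an ankyrin-repeat protein, read 8.62, 8.66 and 8.64 at 6 h, 9.23, 9.33 and 9.16 at 24 h and 9.28, 9.21 and 9.30 in vehicle. FAM43B read 6.77, 6.69 and 7.02 at 6 h, 7.22, 7.19 and 7.22 at 24 h and 7.35, 7.44 and 7.39 in vehicle. Where ANKRD10 overlapped vehicle at 24 h, FAM43B stayed below it in each array. ATOSA read 6.30, 6.36 and 6.69 at 6 h, 6.97, 7.31 and 7.06 at 24 h and 7.03, 6.83 and 7.12 in vehicle. C2orf72 read 9.24, 9.09 and 9.34 at 6 h, 9.91, 9.74 and 9.79 at 24 h and 9.81, 9.71 and 9.69 in vehicle. Both overlapped vehicle at 24 h, and the other 4 were FAM222A, PCMTD1, FAM117A and ZSWIM5, from -0.47 to -0.37.

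Gene length was not used by the rule. The 99 genes spanned a median of 56671 bp in the RefSeq gene table (quartiles 16300.5 and 119682.5 bp), against 26983.5 bp for genes with a mean of at least 6 and 29515 bp for the 61 genes that were up at 6 h and back at 24 h. By chromosome, their share of the genes with a mean of at least 6 was highest on chromosome 13, with 4 of 191 or 2.09%, and chromosome 18, with 3 of 159 or 1.89%. On chromosome 17, which held the most members, it was 10 of 744 or 1.34%, and on chromosome 21 it was 0 of 128. No cytochrome P450 or UDP-glucuronosyltransferase gene, of 23 with a mean of at least 6, no histone gene of 22 and no ribosomal protein gene of 147 was among them.

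Counts over lists of related genes follow. The lists were written with earlier results of these arrays known, and their counts include members, which the rule chose on the same values, as well as genes that the rule left out by name. Of the 18 clock genes measured, 3 were members, RORA, DBP and NFIL3. By limma over all genes 1 clock gene, the repressor BHLHE40, was higher at 6 h, and DBP and NFIL3 were lower, while at 24 h against 6 h 5 were higher (BMAL1, RORA, DBP, NFIL3 and BHLHE40) and 1, CLOCK, was lower. BHLHE40 read 10.17, 10.15 and 10.32 at 6 h, 10.68, 10.57 and 10.45 at 24 h and 9.58, 9.47 and 9.52 in vehicle, so it did not return. Of 20 genes on the list of hepatocyte transcription factors, 6 were lower at 6 h and the other 14 passed in neither direction, and 11 were higher at 24 h than at 6 h. The member was TOX3, whose place on this list is no evidence of a role in hepatocytes. GATA4, one of the 6, read 8.50, 8.38 and 8.54 at 6 h, 8.74, 8.75 and 8.73 at 24 h and 8.76, 8.95 and 8.94 in vehicle, and missed the rule because it came back by 0.27. The median 6 h minus vehicle difference of the 20 factors was -0.18 and that of all genes 0.0039.

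Of 40 WNT pathway genes, with LGR4 and ZNRF3 the members, 1 was higher (TLE1) and 4 were lower at 6 h, and 11 were higher at 24 h than at 6 h. The lower genes that are no members were RNF43, the ligase closest to ZNRF3, with a 6 h minus vehicle difference of -0.27, and the feedback inhibitor AXIN2, with -0.27. AXIN2 read 11.10, 11.13 and 11.06 at 6 h, 11.15, 11.17 and 11.13 at 24 h and 11.41, 11.30 and 11.38 in vehicle, so it stayed below vehicle. Of 43 genes of insulin and growth factor signalling, with KLB and GRB7 the members, 4 were higher at 6 h (FOXO1, GRB10, SPRY4 and ERRFI1) and 5 were lower (GRB7, KLB, TSC1, ERBB3 and GRB2). Of 34 nuclear receptors and coregulators, with RORA the member, 2 were higher at 6 h (NR3C1 and LPIN1) and 3 were lower (PPARA, RXRA and PPARGC1A), while RORA itself was not called, and 10 were higher and 2 lower at 24 h against 6 h, again NR3C1 and LPIN1. PPARA (-0.61 at 6 h minus vehicle, -0.06 at 24 h minus vehicle) and RXRA (-0.64 and -0.06) met the numbers of the rule and are no members only because it left them out by name. Of 31 Notch and Hippo genes, with TEAD3 the member, 3 were higher at 6 h (NOTCH2, CCN1 and CCN2) and 2 were lower (TEAD3 and LATS2).

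The other lists held no member, but PTCHD4 and TP53INP1 of the p53 list and INSIG2 of the cholesterol list met the numbers of the rule and were left out by name. For PTCHD4 the 6 h and 24 h differences from vehicle were -1.06 and -0.20, for TP53INP1 -0.51 and 0.16, and for INSIG2 -0.38 and 0.11. Among 27 genes of fatty acid oxidation and other PPARα targets, 4 were higher at 6 h (PLIN2, SLC25A20, ACSL1 and VNN1) and the other 23 passed in neither direction. Among 30 immediate early genes, 13 were higher at 6 h and the other 17 passed in neither direction. Among 84 chromatin genes, 2 were higher at 6 h (DNMT3B and HEXIM1) and 4 lower (KDM4B, KDM6A, ARID5B and BRD3). Among 57 genes of RNA decay, splicing and elongation 2 were higher (ZFP36L1 and HEXIM1) and 2 lower (TNRC6A and TNRC6C), a pair of proteins of microRNA silencing. The p53 list had 1 higher of 33 (SERTAD1) and 5 lower (TNFSF10, ZMAT3, PPM1D, TP53INP1 and PTCHD4), and the acute phase list 5 lower of 29 (HP, FGA, C4BPB, C1R and C8A). The cell cycle list had 1 higher (CCNE1) and 1 lower (CDC25B) of 53, the TGF-beta list 4 higher (ID1, ID3, SKIL and INHBE) and 1 lower (TGFBR2) of 38, and the cholesterol list 7 higher and 1 lower (INSIG2) of 23. The stress list had 5 higher (ATF3, DDIT4, ASNS, TRIB3 and SLC7A11) and 1 lower (HERPUD1) of 31, and the hypoxia list 3 higher of 27 (SLC2A1, SLC2A3 and BHLHE40). Calls over all genes at 6 h against vehicle were 1.64% higher and 1.91% lower, and at 24 h against 6 h 9.23% higher and 4.57% lower.

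The dip was set against the opposite pattern with both signs of the rule turned, which 61 genes met. Of the 192 genes at least 0.35 lower at 6 h with all arrays apart, 106 met the rest of the rule before names were left out, or 55.2%, and 14 were still at least 0.35 below vehicle at 24 h, or 7.29%. Of the 174 genes at least 0.35 higher at 6 h with all arrays apart, 61 had come back, or 35.1%, and 59 were still at least 0.35 above vehicle, or 33.9%. The difference between these shares was not tested, since the comparisons share arrays. The 5 largest of the opposite set were GPCPD1, a phosphodiesterase of choline phospholipid breakdown, EGR1, an immediate early transcription factor, CCL20, a chemokine, EDN1, which encodes endothelin, and SGK1, a kinase induced by stress and steroids, with 6 h minus vehicle differences of 1.49, 1.01, 0.84, 0.81 and 0.76.

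**Figure D4:**
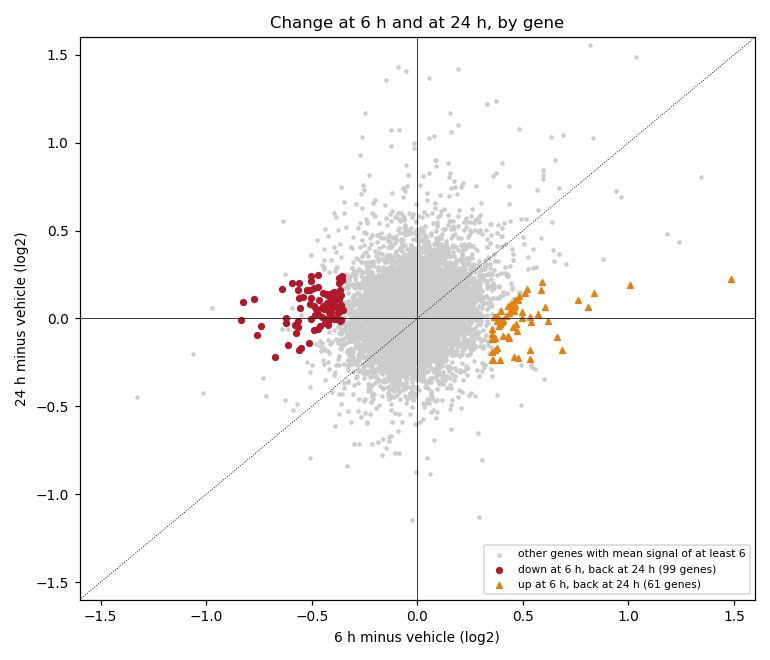
Difference from vehicle at 6 h (horizontal, log2) and at 24 h (vertical, log2) for 11735 of the 11750 genes with a mean signal of at least 6. The other 15 lie outside the axes. Red points are the 99 genes down at 6 h and back at 24 h, orange triangles the 61 genes up at 6 h and back at 24 h, and on the dotted diagonal both differences are equal.

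GPCPD1 read 9.12, 9.07 and 8.89 at 6 h, 7.69, 7.70 and 7.92 at 24 h and 7.39, 7.60 and 7.64 in vehicle. All its 6 h arrays stood above the rest, and its 24 h arrays lay slightly above vehicle with no overlap.

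Genes on either side of the limit had near-equal dips. Just inside it were ADCY9 at -0.3517, LMO4 at -0.3552 and MLLT6 at -0.3585, and just outside it were KLHDC10 at -0.3485, ACP6 at -0.3462 and WFS1 at -0.3436. Each of the outer 3 met the other conditions.

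The rule did not use the other probe sets of these genes, which read the same RNA on the same arrays. Of the 99 genes 27 had 1 probe set and 72 had several, with 172 other probe sets in all. Of the 94 with a mean of at least 6, from 61 genes, 85 had a 6 h mean below the vehicle mean and 29 were at least 0.35 below it. At 24 h the mean was above the 6 h mean in 77 of the 94 and by at least 0.35 in 39, and 26 of the 94 lay within all 3 limits on differences. Such counts were not made over all probe sets, so they lack a background and are given as a description. Over all genes with a mean of at least 6, the median 6 h minus vehicle difference was -0.0096 (quartiles -0.0865 and 0.0697). The median 24 h minus 6 h difference was 0.0174 (quartiles -0.0842 and 0.1458). The 9 with a 6 h mean above vehicle belonged to FAM20C, KHDC4, KLF9, SAP30L, SLC29A2, TMT1A, TNRC18 and TOX3, with a pair in SAP30L. Probe sets of a gene share the RNA of the same arrays and can share transcripts, and the gene's best probe set was chosen on signal, so these are no replicates. For TOX3 a pair of others differed by -0.76 and -0.74, but like the probe set used these have probes that can match unrelated genes. A dimmer one without such probes, with a mean of 6.53, differed by 0.06. Its 24 h minus 6 h difference was -0.06, so it showed no dip. For BCL6 the others differed by -0.94 and -0.21. For STAT3 they differed by -0.36, -0.30 and, with a mean under 6, by -0.18. KLF9 had one at -0.78 and another at 0.25, with the sizes in opposite directions. With all probe sets of a gene averaged, dim ones included, the 6 h minus vehicle difference shrank by over 1.5 times in 17 of the 30 largest falls. It was then between -0.37 and -0.28 in AGFG2, JADE2, IL1R1, ANKRD10, KLHL14, SLC22A23, KLF9 and ATOSA, and between -0.24 and -0.10 in LRIG1, C2orf72, RBM33, GREB1, TNRC18, KHDC4, RORA, TRIM50 and TMT1A. In 30 of the 99 genes the probe set used has probes shared between transcripts of a gene family or locus, and in 2, TOX3 and ZNF114, probes that can match unrelated genes, so those values may mix transcripts.

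**Figure D5:**
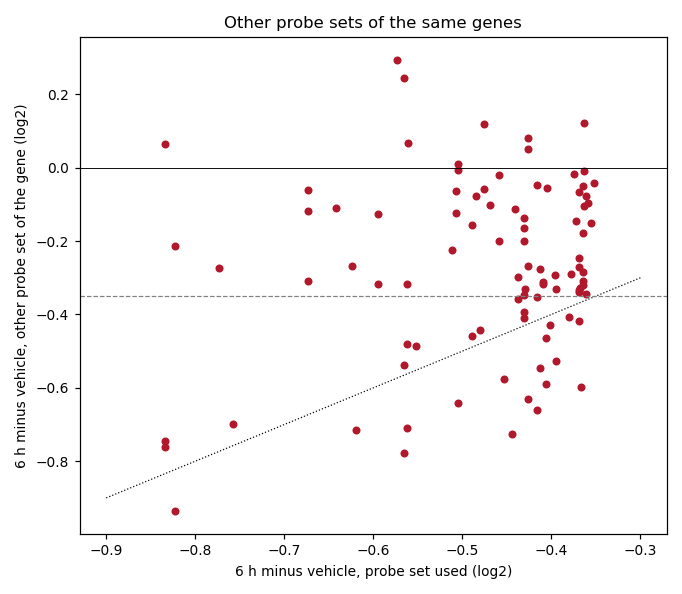
The 6 h minus vehicle difference (log2) of 94 other probe sets with a mean of at least 6 (vertical) beside that of the probe set used for the gene (horizontal), 1 point a probe set. On the dotted diagonal both are equal, the dashed line marks the limit of the rule, and 85 points lie below 0.

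Probe sets with no gene symbol were left out of the rule. Of 11721 such probe sets, 2551 had a mean of at least 6, and 13 met all numbers of the rule, with 13 more meeting it with both signs turned. Of 1801 probe sets with several symbols 4 met it.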

How the data were processed

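HepG2 RNA was hybridised to 9 Affymetrix arrays, 3 each for 100 nM GW7647 at 6 h, the same dose at 24 h, and DMSO vehicle. The deposited values are log2 signals per probe set that the authors made with RMA, per the submitters' processing notes, which give no version. They were used with no further transformation. Of 54675 probe sets, 62 controls, 11721 with no symbol and 1801 with several symbols were set aside, and the remaining 41091 gave 19775 genes with the brightest probe set kept for each.

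The 99 genes, the gene lists, the motifs, the alternatives and the rule for named genes (the 30 largest falls with every array, genes on a list or near the limit, the 5 largest of the opposite set, and PLIN2, CPT1A and MT1G) were chosen with earlier results of these data known. Role groups were assigned, from general knowledge, once the members were known, and SLC30A1, BHLHE40, GATA4, AXIN2, further members and other list genes were named after their values were seen. Differences came from limma 3.58.1 in R 4.3.3 (lmFit and eBayes on group means of all 9 arrays, 6 residual and 11.0 total degrees of freedom), tested two-sided with Benjamini-Hochberg adjustment over 19775 genes, with calls made at 0.05. A log2 difference had a standard error of 0.07 in the median, and 3 arrays a group limit the precision. The fit was tested on simulated data. Motifs and gene features were read from RefSeq tables (GRCh38.p14) with Python 3.11.15. Alternatives covered the scaling, the choice of probe set, the limits of the rule, the signal floor, the model and each array left out in turn.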

Additional observations from a re-analysis of the deposited data

Results flagged for a closer look

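In 20 of the 99 genes every 6 h array lay below and every 24 h array lay above all vehicle arrays. The order at 24 h is met by 14% of all genes, and of the 99 genes only MLLT6 was called higher at 24 h than in vehicle by limma, so the 24 h values are given as values. The rule itself favours 24 h arrays above vehicle, since a 24 h mean at least 0.35 above the 6 h mean left small falls little room below it. It also used both comparisons with the same vehicle arrays, and the difference between these directions was not tested. Of the 30 largest falls, 9 were of this kind, none of them called at 24 h, and their 24 h minus vehicle differences on the log2 scale were 0.17 in JADE2, 0.20 in RBM33, 0.16 in TRIM50, 0.11 in AGFG2, 0.20 in TMT1A, 0.16 in COQ10A, 0.16 in LRIG1, 0.16 in IL1R1 and 0.21 in TNRC18. All 9 values lie under the limit of 0.25 that the rule set. Some other probe sets with a mean of at least 6 ended below vehicle, in AGFG2, in RBM33 (-0.19) and in TNRC18 (-0.07 and -0.05). Others ended above it, in RBM33 (0.20), TNRC18 (0.25), JADE2 (0.16) and TMT1A (0.33).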

How the results depend on the processing

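The rule gave 99 genes on the values as deposited, 79 after quantile normalization, 115 after median centring and 78 without probe sets whose names end in _x_at or _s_at. With all probe sets of a gene averaged it gave 50 genes, 43 of them among the 99, with limits of 0.30 in place of 0.35 it gave 159, and with limits of 0.40 it gave 63. Leaving out 1 array at a time gave 75 (without the second 6 h array) to 126 genes, and 51 of the 99 were kept whichever array was left out. The median 24 h minus vehicle difference of 0.06 was between 0.0386 and 0.082 with an array left out. Genes called lower at 6 h, 377 in all and 87 of the 99, were 244 in all without shared probes, 227 when each fit held its own compared groups, 632 with an intensity trend and robust prior, 629 among genes with a mean of at least 6, and 112 in all and 52 of the 99 at an adjusted p under 0.01. Averaging probe sets left 57 of the 99. Leaving out 1 array gave 111 to 339 in all and 49 to 86 of the 99, both lowest without the second 6 h array, and the counts over all genes were 155 and 205 without the 6 h arrays 1 and 3, and 241 and 221 without the vehicle arrays 1 and 3. Genes called higher at 24 h than at 6 h, 1826 in all and 98 of the 99, were 1142 without shared probes, 917 at an adjusted p under 0.01, and 989 to 2061 in all and 88 to 99 of the members with an array left out, with 1189 without the second 24 h array. The labels number the replicates alike but do not say that they pair, and deviations of same-numbered arrays correlated at -0.20 to 0.09. With the replicate block 219 genes were called lower at 6 h and 81 of the 99, and 1470 higher at 24 h than at 6 h and 95 of the 99. Of 384 recomputed values of the 30 largest falls, 360 moved by less than the spread between arrays, 23 moved by more, 21 of them with probe sets averaged, and 1 changed sign, TMT1A at 6 h minus vehicle, which was 0.0002 without shared probes against -0.56. The causes of these shifts were not tested, save that fewer samples or genes enter some of the fits.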
